A study of Homo sapiens with 24 samples.

Results

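The genes described here are 41 integrins, syndecans and focal adhesion adaptors, chosen by name as members of this machinery, among 58174 gene symbols with usable values. They were read in 24 mRNA libraries of HEK293A, an adherent line of human embryonic kidney origin, in 4 genotypes crossed with 2 stiffnesses and 3 biological replicates per group. The genotypes were RAP2A/B/C-tKO (knockout of the small GTPase genes RAP2A, RAP2B and RAP2C), LATS1/2-dKO (of LATS1 and LATS2), YAP/TAZ-dKO (of YAP and TAZ) and WT. All cells stood on fibronectin-coated hydrogels of 40 or 1 kPa in medium with serum, with no further treatment. The coating was therefore the same everywhere, and the ligands present on the gels were not measured. The sources used here do not say how many clones make up a genotype, so a clone and a genotype cannot be told apart.

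Cells hold on to the matrix beneath them through integrins, paired alpha and beta chains that bind matrix proteins outside the cell. Inside, talin and kindlin bind the beta chain and switch the pair on, and vinculin, the complex of ILK, PINCH and parvin, tensins and docking proteins such as paxillin build the focal adhesion that ties it to actin and to the kinases FAK and SRC. Syndecans and CD44 are further matrix receptors, rich in sugar chains, that act beside integrins. The Hippo kinases LATS1 and LATS2 hold back YAP and TAZ, coactivators that work through TEAD transcription factors and are known to respond to adhesion and stiffness.

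Values are FPKM, the authors' estimate of fragments per kilobase of transcript scaled to library depth, which may be compared between genes. Library depth, estimated from the widths of the deposited confidence intervals, was 19300000 to 42200000 fragments. In YAP/TAZ-dKO cells YAP1 averaged 6.13 ± 0.435 FPKM, against 31.3 ± 0.864 in WT, and WWTR1, which encodes TAZ, 10.4 ± 0.926 against 26.8 ± 2.02 (SD, n = 6 each, over both stiffnesses). LATS1 averaged 5.44 ± 0.389 FPKM in LATS1/2-dKO cells and 12.6 ± 0.742 in WT, whereas LATS2 was not called lower (3.296 ± 0.534 against 2.47 ± 0.621). In RAP2A/B/C-tKO cells RAP2A averaged 6.57 ± 0.732 FPKM against 8.35 ± 0.506 in WT, RAP2B 5.49 ± 0.451 against 4.43 ± 0.222 and RAP2C 21.1 ± 2.78 against 18.5 ± 1.34. Of these, RAP2A was called lower and RAP2B higher. An edit may leave the transcript in place, so the levels of LATS2, RAP2B and RAP2C do not check the labels, and the lines are named as labelled. The epithelial keratins KRT8 and KRT18, VIM and CDH2 stood at 25.2 FPKM or more in all 24 libraries, the kidney factor PAX8 reached at most 0.135, and the endothelial markers CDH5, KDR and VWF stayed below 1 FPKM. Among 6 fibroblast markers, COL1A1 lay between 3.31 and 7.87 FPKM, LUM between 0 and 9.02, and DCN was listed at 0 in every library, with COL1A2, THY1 and PDGFRB below 1 FPKM throughout.

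Standing apart were 2 libraries, RAP2A/B/C-tKO on 40 kPa replicate 3 and LATS1/2-dKO on 40 kPa replicate 1: their deviation from the group mean followed gene GC content (Spearman's rho over 15513 genes, which are not independent replicates, was -0.60 and -0.57). In the other 6 groups it lay between -0.33 and 0.29. The other replicates of their 2 groups lay between 0.38 and 0.54. Several adhesion genes deviated in these libraries. BCAR1, the docking protein p130Cas, had 19.0, 18.7 and 5.50 FPKM in the 3 RAP2A/B/C-tKO libraries on 40 kPa and 6.87, 23.2 and 11.8 in those of LATS1/2-dKO. CD151 stood at 168, 154 and 86.8 FPKM in the same RAP2A/B/C-tKO libraries, SDC1 at 16.1, 15.3 and 6.47 and FERMT2, in the other direction, at 26.1, 28.2 and 45.9. Counts below are therefore also given without these 2 libraries.

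The plot of WT levels shows how widely the 41 genes differed in abundance. Among the integrin chains, the shared beta 1 chain ITGB1 stood highest with 136 to 149 FPKM (median 145), followed by ITGAE with 58.4 to 66.0 FPKM (median 59.8) and ITGB5 with 38.6 to 52.7 FPKM (median 44.3). ITGAE is known as a lymphocyte integrin chain, while the leukocyte markers PTPRC and CD3E reached at most 0.0178 and 0.0641 FPKM in any library. Its locus is known to overlap other genes, and the sources used here do not state whether fragments were assigned by strand. Next came ITGAV at 14.2 to 19.5 FPKM (median 17.8) and the fibronectin receptor chain ITGA5 at 15.5 to 19.7 FPKM (median 17.3), ranges that overlapped, then ITGA4 at 10.6 to 12.6 FPKM (median 11.6) and the laminin receptor chain ITGA6 at 8.37 to 12.5 FPKM (median 8.78), which overlapped too. ITGA3, ITGA1, ITGA7 and ITGA2 had medians of 5.90, 4.75, 4.04 and 2.07 FPKM. Of the cytoplasmic proteins, talin, FAK and vinculin stood highest. Talin 1 (TLN1) was at 115 to 134 FPKM (median 121), PTK2 (FAK) at 65.4 to 79.5 FPKM (median 69.0) and VCL at 57.1 to 64.1 FPKM (median 60.2). Among the other receptors SDC2, with 63.1 to 79.9 FPKM (median 71.3), led the syndecans, and the tetraspanin CD151, which binds laminin receptors, was the most abundant of the 41 genes by its median, at 144 to 165 FPKM (median 149), overlapping ITGB1. Below the filter of 1 FPKM in at least 3 libraries stayed 5 integrin chains, ITGA8 (0.00377 to 0.638 FPKM over all 24 libraries), ITGA9 (0.00467 to 0.197), ITGA11 (0 to 0.266), ITGB3 (0.0337 to 0.202) and ITGB4 (0 to 0.791). Tests therefore covered 36 of the 41 genes.

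**Figure D1:**
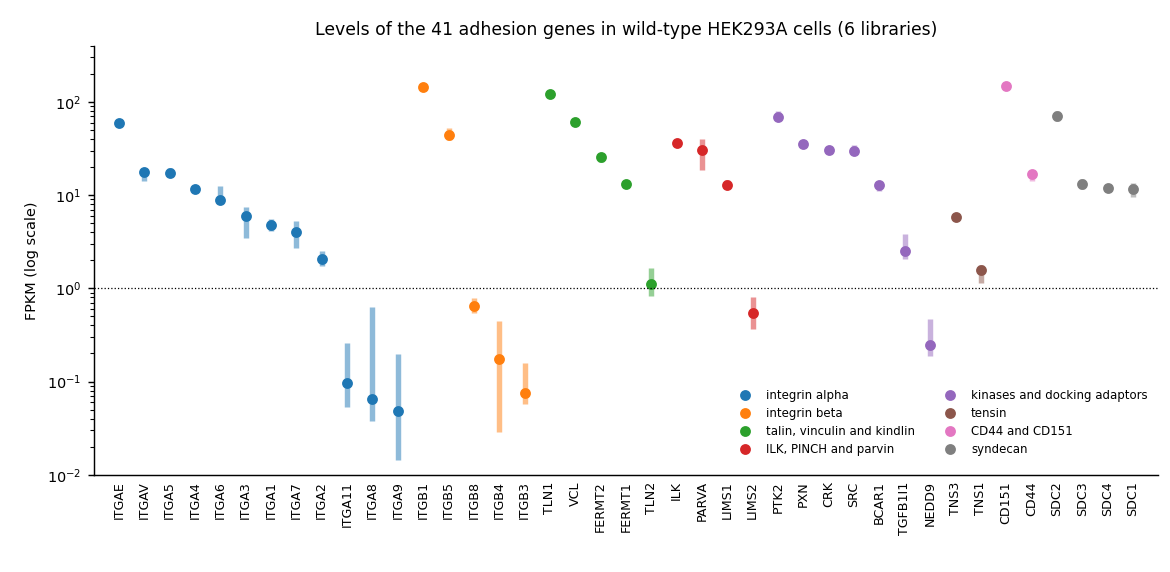
FPKM of the 41 genes in the 6 WT libraries on a log axis, grouped and coloured by family; points are medians, bars run from the lowest to the highest library, and the dotted line marks 1 FPKM. ITGB1, CD151 and TLN1 stand above 100 FPKM in every WT library, and 5 integrin chains, ITGB8, LIMS2 and NEDD9 stay below the line.

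Which of these genes differ with the Hippo and RAP2 genotype was asked by setting each knockout line against WT over both stiffnesses. A gene was called at a Benjamini-Hochberg adjusted p below 0.05, taken over all 15828 genes tested, in a limma fit of log2(FPKM + 1). Changes are differences on that scale with their SE, which understate changes of genes near or below 1 FPKM. In bulk libraries, fewer cells expressing a gene and less RNA per cell cannot be told apart. In YAP/TAZ-dKO cells 3 of the 36 genes were higher and 18 lower, that is 58.3% called beside 50.6% of all genes tested. By direction, 27% of all genes were lower and 23.6% higher in this line. LATS1/2-dKO cells had 12 higher and 5 lower, 47.2% called beside a background of 33.9% (16% higher and 17.8% lower), and RAP2A/B/C-tKO cells 12 higher and 2 lower, 38.9% beside 16% (7.4% higher and 8.57% lower). The median change of the 36 genes was -0.15 in YAP/TAZ-dKO, 0.062 in LATS1/2-dKO and 0.13 in RAP2A/B/C-tKO, where the median over all genes was 0.00097, -0.013 and -0.00020.

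The 3 comparisons share the WT libraries. The share called in YAP/TAZ-dKO lay close to its background, so nothing is read from it about these genes as a set. ITGB8, LIMS2 and NEDD9 were below 1 FPKM in all 6 WT libraries and passed the filter through the LATS1/2-dKO and RAP2A/B/C-tKO libraries. Without these 3, the calls were 9 higher and 5 lower of 33 in LATS1/2-dKO, 9 higher and 2 lower in RAP2A/B/C-tKO, and 3 higher and 17 lower in YAP/TAZ-dKO. Without the 2 libraries that stood apart, 25 of 36 genes were called in YAP/TAZ-dKO, 24 in LATS1/2-dKO and 19 in RAP2A/B/C-tKO, where the background was 61.3%, 42.5% and 27.6%. All 6 libraries of one line lay above or below all 6 WT libraries for 3 genes higher and 15 lower in YAP/TAZ-dKO, where 17% and 20% of all genes tested did so. The same held for 10 higher and 4 lower in LATS1/2-dKO (8.83% and 9.28% of all genes), and for 7 and 1 in RAP2A/B/C-tKO (3.19% and 3.89%). ITGB8, LIMS2 and NEDD9, which passed the filter through these lines, are among the 10, and ITGB8 and NEDD9 among the 7.

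**Figure D2:**
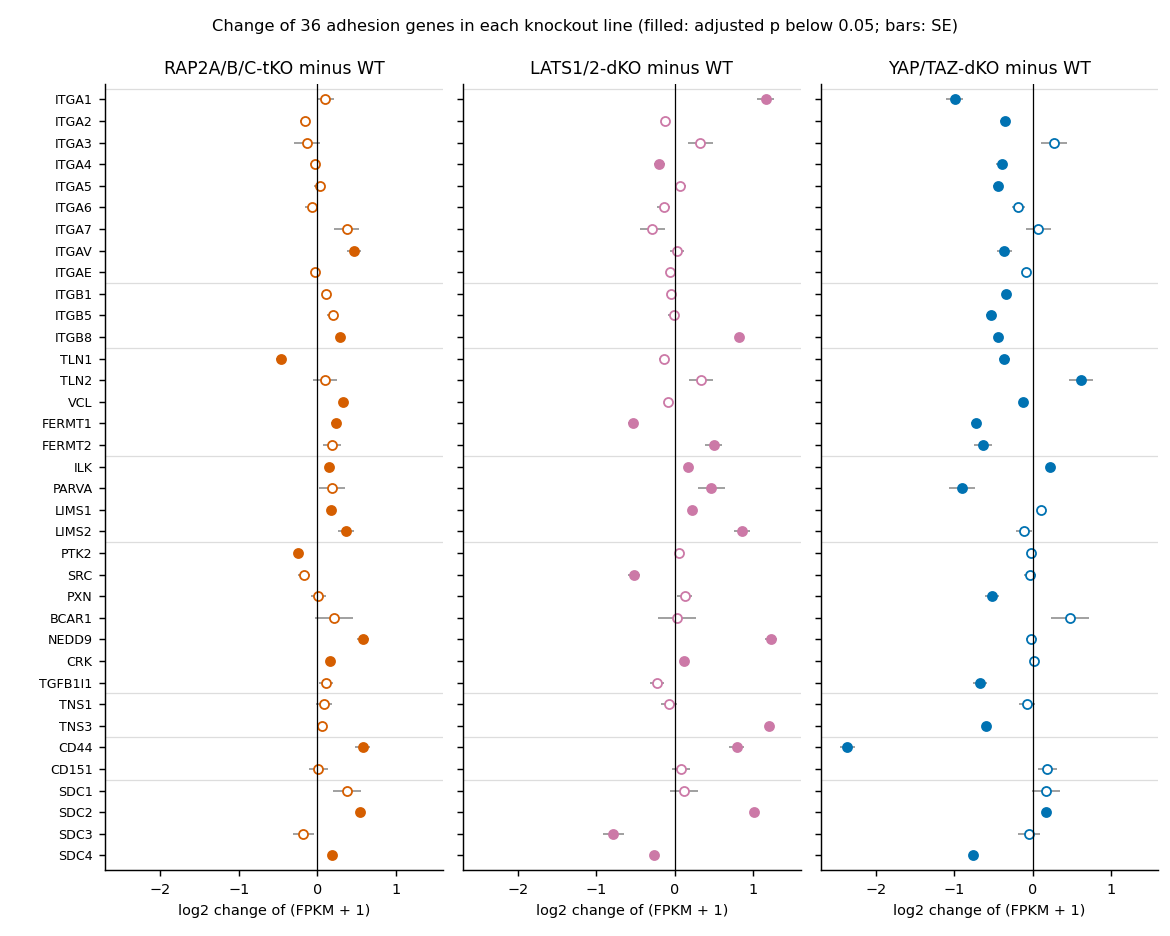
Change in log2(FPKM + 1) of the 36 tested genes in RAP2A/B/C-tKO, in LATS1/2-dKO and in YAP/TAZ-dKO cells, each minus WT, over both stiffnesses; bars are SE, filled points have an adjusted p below 0.05, and grey lines separate families. CD44 at -2.36 in YAP/TAZ-dKO lies farthest from 0, and ITGA1, TNS3, CD44, ITGB8, FERMT2 and PARVA lie on opposite sides of 0 in LATS1/2-dKO and YAP/TAZ-dKO.

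Promoter sequence of RefSeq (build GRCh38.p14), 250 bases before to 50 after each gene start, was found for 30 of the 41 genes, with 57 starts among them. It was searched on both strands for GGAATG, the core motif of TEAD, and for TGANTCA, the motif of AP-1. GGAATG stood in 6 of these 57 promoters (10.5%) and in 14.0% of all 35116 promoters, and TGANTCA in 3 (5.26%) and 7.71%. Of the 5 genes with GGAATG, ITGA5, ITGB1, PXN and VCL were called lower in YAP/TAZ-dKO cells and TNS1 was not called. Among the 36 genes tested 18 were lower, and the call of VCL held in 11 of 18 alternatives, so nothing is read from this count. Printed are 4 promoters with the motif, from the 4 genes that hold it and were called lower. That of TNS1, which was not called, is left out, so the choice followed the calls. The promoter of CD44, the gene with the largest change, is printed because neither motif was found in it. A match is a run of letters only. Capitals mark the matches. In PXN they read CATTCC, the reverse complement of the TEAD core. Positions are counted from the gene start.
ITGA5, chr12:54419217-54419516, minus strand, GGAATG at -82 and an AP-1 match at -6: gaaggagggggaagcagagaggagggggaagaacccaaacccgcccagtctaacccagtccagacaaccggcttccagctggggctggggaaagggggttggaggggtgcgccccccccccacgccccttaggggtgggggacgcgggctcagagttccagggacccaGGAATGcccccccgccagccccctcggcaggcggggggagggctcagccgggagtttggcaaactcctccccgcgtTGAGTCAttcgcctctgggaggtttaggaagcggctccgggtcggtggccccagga
ITGB1, chr10:32958181-32958480, minus strand, GGAATG at -182: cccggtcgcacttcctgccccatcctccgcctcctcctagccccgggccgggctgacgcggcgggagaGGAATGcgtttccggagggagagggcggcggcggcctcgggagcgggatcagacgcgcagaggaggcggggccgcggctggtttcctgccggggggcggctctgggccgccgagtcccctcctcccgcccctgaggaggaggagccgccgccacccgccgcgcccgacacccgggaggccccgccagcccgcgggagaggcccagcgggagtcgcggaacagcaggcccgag
PXN, chr12:120250114-120250413, minus strand, match at -67: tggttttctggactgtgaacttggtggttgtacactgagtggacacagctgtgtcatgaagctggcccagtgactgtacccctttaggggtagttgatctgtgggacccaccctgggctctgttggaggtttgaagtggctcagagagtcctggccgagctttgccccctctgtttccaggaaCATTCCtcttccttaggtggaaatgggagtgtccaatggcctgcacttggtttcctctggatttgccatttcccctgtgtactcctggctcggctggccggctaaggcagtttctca
VCL, chr10:73997866-73998165, plus strand, GGAATG at -171: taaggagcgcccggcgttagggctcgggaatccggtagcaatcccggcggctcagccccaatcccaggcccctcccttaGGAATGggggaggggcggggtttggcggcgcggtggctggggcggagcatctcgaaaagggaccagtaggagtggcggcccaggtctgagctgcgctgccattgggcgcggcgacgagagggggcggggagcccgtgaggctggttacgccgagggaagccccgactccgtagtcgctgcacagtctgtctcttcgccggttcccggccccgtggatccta
CD44, chr11:35138921-35139220, plus strand, no match: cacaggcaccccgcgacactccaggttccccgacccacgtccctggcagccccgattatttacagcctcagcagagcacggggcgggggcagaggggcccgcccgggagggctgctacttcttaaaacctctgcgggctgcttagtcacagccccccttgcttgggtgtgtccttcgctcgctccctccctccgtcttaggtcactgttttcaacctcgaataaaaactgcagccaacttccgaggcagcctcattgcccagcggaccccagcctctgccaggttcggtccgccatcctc

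Of the 9 integrin alpha chains tested, 5 were lower and 0 higher in YAP/TAZ-dKO cells, 55.6% called and thus near the 50.6% of all genes. In LATS1/2-dKO cells ITGA1 was higher and ITGA4 lower, and in RAP2A/B/C-tKO cells ITGAV was higher. ITGA1 (ENSG00000213949.8, chromosome 5, 52083730 to 52255040, hg19), the alpha chain of a collagen and laminin receptor, showed the largest range. It lay at 10.4 to 14.4 FPKM (median 11.5) in the 6 LATS1/2-dKO libraries and at 1.54 to 2.203 FPKM (median 1.90) in those of YAP/TAZ-dKO, against 4.12 to 5.52 FPKM (median 4.75) in WT. Neither line overlapped WT. The change was 1.16 ± 0.11 (adjusted p = 1.51e-07) in LATS1/2-dKO and -0.99 ± 0.11 (4.59e-07) in YAP/TAZ-dKO. RAP2A/B/C-tKO cells, at 3.21 to 6.65 FPKM (median 5.65), overlapped WT and differed from LATS1/2-dKO cells by -1.05 ± 0.11 (adjusted p = 5.77e-07).

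ITGA5, whose product with beta 1 is the classical fibronectin receptor, lay at 11.1 to 14.1 FPKM (median 12.5) in YAP/TAZ-dKO cells and 15.5 to 19.7 FPKM (median 17.3) in WT (-0.44 ± 0.070, adjusted p = 3.35e-05). All 6 knockout libraries were below all 6 WT libraries. Its level in LATS1/2-dKO cells was 14.7 to 21.4 FPKM (median 18.3), which overlapped WT. ITGA4, a chain for fibronectin and VCAM1, fell in YAP/TAZ-dKO cells (-0.40 ± 0.065, adjusted p = 5.1e-05) and by a smaller amount in LATS1/2-dKO cells (-0.20 ± 0.065, 0.0252). The LATS1/2-dKO call was lost without WT on 1 kPa replicate 3 (adjusted p = 0.0675), WT on 40 kPa replicate 2 (0.0624), LATS1/2-dKO on 1 kPa replicate 2 (0.056) or LATS1/2-dKO on 40 kPa replicate 3 (0.0603). ITGA2, a collagen receptor chain that lies next to ITGA1 on chromosome 5, fell in YAP/TAZ-dKO cells as well (-0.35 ± 0.058, adjusted p = 4.77e-05), with 1.24 to 1.54 FPKM (median 1.39) against 1.75 to 2.54 FPKM (median 2.07) in WT and no overlap.

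ITGAV, the alpha chain of several receptors for vitronectin and latent TGF-beta, moved in both directions. It lay at 20.3 to 30.1 FPKM (median 23.5) in RAP2A/B/C-tKO cells and 11.3 to 15.9 FPKM (median 12.9) in YAP/TAZ-dKO cells, against 14.2 to 19.5 FPKM (median 17.8) in WT. The RAP2A/B/C-tKO libraries all stood above WT, and those of YAP/TAZ-dKO overlapped it. The changes were 0.47 ± 0.092 (adjusted p = 0.00147) and -0.36 ± 0.092 (0.00304), and RAP2A/B/C-tKO was also above LATS1/2-dKO (0.44 ± 0.092, 0.00104). The other alpha chains tested, ITGA3, ITGA6, ITGA7 and ITGAE, were not called against WT in any line. ITGA7, a laminin receptor chain, differed between RAP2A/B/C-tKO and LATS1/2-dKO cells (0.66 ± 0.16, adjusted p = 0.00386), with 3.68 to 7.27 FPKM (median 5.37) and 2.48 to 4.11 FPKM (median 2.78). Across the 36 genes, 10 were higher and 10 lower in that comparison, 55.6% beside 31.3% of all genes (15.8% higher and 15.4% lower). Without ITGB8, LIMS2 and NEDD9, 10 of 33 were higher and 7 lower (51.5%).

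The 3 beta chains tested were each lower in YAP/TAZ-dKO cells, where 27% of all genes were. ITGB1, partner of most alpha chains here, lay at 109 to 119.8 FPKM (median 112) against 136 to 149 FPKM (median 145) in WT, with no overlap (-0.34 ± 0.037, adjusted p = 3.38e-07). ITGB5, which pairs with alpha V, lay at 28.7 to 33.5 FPKM (median 30.2) against 38.6 to 52.7 FPKM (median 44.3) (-0.53 ± 0.068, 2.92e-06). In LATS1/2-dKO cells both stayed uncalled, at -0.049 ± 0.037 and -0.018 ± 0.068. ITGB8 (ENSG00000105855.9, chromosome 7, 20370325 to 20455377), whose product with alpha V binds latent TGF-beta, was scarce but separated all 4 genotypes. Its levels were 0.838 to 1.21 FPKM (median 1.03) in RAP2A/B/C-tKO, 1.80 to 2.05 FPKM (median 1.91) in LATS1/2-dKO and 0.185 to 0.257 FPKM (median 0.209) in YAP/TAZ-dKO cells, against 0.540 to 0.792 FPKM (median 0.639) in WT. No knockout line overlapped WT. The mean FPKM was 2.91 times that of WT in LATS1/2-dKO, 1.55 times in RAP2A/B/C-tKO and 0.330 times in YAP/TAZ-dKO (adjusted p = 1.53e-10, 0.000346 and 2.56e-07). ITGB8 had passed the filter through LATS1/2-dKO and RAP2A/B/C-tKO libraries, the lines where it was higher.

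Of talin 1, talin 2, vinculin and the kindlins FERMT1 and FERMT2, 4 were lower and 1 higher in YAP/TAZ-dKO cells, beside 27% and 23.6% of all genes. FERMT2 (ENSG00000073712.14, chromosome 14, 53323986 to 53419153), the kindlin of most adherent cells, lay at 30.6 to 40.8 FPKM (median 36.6) in LATS1/2-dKO and 13.9 to 18.6 FPKM (median 15.9) in YAP/TAZ-dKO cells, against 22.9 to 27.4 FPKM (median 25.8) in WT. Neither overlapped WT (0.49 ± 0.11, adjusted p = 0.00204, and -0.63 ± 0.11, 0.00011). FERMT1, the kindlin of epithelia, was lower in both of these lines, with 7.76 to 9.47 FPKM (median 8.79) and 6.35 to 8.004 FPKM (median 7.79) against 11.9 to 13.9 FPKM (median 13.03) in WT (-0.54 ± 0.066, 3.56e-06, and -0.73 ± 0.066, 3.03e-08). The kindlins thus went in opposite directions in LATS1/2-dKO cells and in one direction in YAP/TAZ-dKO cells. In RAP2A/B/C-tKO cells FERMT1 was higher (0.24 ± 0.066, adjusted p = 0.0155), a call lost when only the compared groups were fitted (0.0503).

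TLN1, the talin that links beta chains to actin, lay at 70.0 to 97.9 FPKM (median 91.5) in RAP2A/B/C-tKO and 87.7 to 109 FPKM (median 94.0) in YAP/TAZ-dKO cells, against 115 to 134 FPKM (median 121) in WT. Both lines stood wholly below WT (-0.46 ± 0.066, adjusted p = 8.19e-05, and -0.36 ± 0.066, 0.000159). TLN2, a scarce second talin, was higher in YAP/TAZ-dKO cells at 1.69 to 3.26 FPKM (median 2.02) against 0.833 to 1.65 FPKM (median 1.12) (0.61 ± 0.15, 0.00275), and its values sum 2 entries of the deposited tables. Vinculin (VCL), which reinforces the talin link, was higher in RAP2A/B/C-tKO cells at 70.1 to 81.6 FPKM (median 74.8) against 57.1 to 64.1 FPKM (median 60.2) in WT (0.32 ± 0.046, 8.03e-05), with no overlap. Its call in YAP/TAZ-dKO cells was small (-0.12 ± 0.046, 0.0343) and held in 11 of 18 alternatives. Leaving out WT on 1 kPa replicate 1 or 3, WT on 40 kPa replicate 2, YAP/TAZ-dKO on 1 kPa replicate 1 or 3, or YAP/TAZ-dKO on 40 kPa replicate 2 ended it (adjusted p up to 0.107). The call was also lost with no filter. VCL averaged 49.8 FPKM in YAP/TAZ-dKO cells on 40 kPa against 59.7 in WT, and 61.8 against 61.2 on 1 kPa.

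ILK, PINCH and parvin form 1 complex at the beta chain tail. All 4 of its genes tested here were higher in LATS1/2-dKO cells (16% of all genes) and 3 of 4 in RAP2A/B/C-tKO cells (7.4%). LIMS2, among them, passed the filter through these lines. In YAP/TAZ-dKO cells ILK was higher and PARVA lower. PARVA (ENSG00000197702.11, chromosome 11, 12398732 to 12552348), the actin-binding subunit, lay at 30.0 to 49.4 FPKM (median 39.9) in LATS1/2-dKO and 9.26 to 19.3 FPKM (median 15.0) in YAP/TAZ-dKO cells, against 18.7 to 39.8 FPKM (median 30.4) in WT, where its libraries were widely spread. Both lines overlapped WT. The fall in YAP/TAZ-dKO cells was -0.90 ± 0.17 (adjusted p = 0.000184). The rise in LATS1/2-dKO cells (0.46 ± 0.17, 0.0385) held in 9 of 18 alternatives. It was lost without WT on 1 kPa replicate 2 or 3, WT on 40 kPa replicate 2 or 3, LATS1/2-dKO on 1 kPa replicate 1 or 3, or LATS1/2-dKO on 40 kPa replicate 2 or 3 (adjusted p up to 0.105). The call was also lost with no filter.

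LIMS2, the scarcer PINCH, lay at 0.616 to 1.30 FPKM (median 1.05) in RAP2A/B/C-tKO and 1.06 to 2.29 FPKM (median 1.97) in LATS1/2-dKO cells, against 0.366 to 0.813 FPKM (median 0.550) in WT, and was called in both (0.37 ± 0.10, adjusted p = 0.0204, and 0.85 ± 0.10, 3.37e-06). The LATS1/2-dKO libraries did not overlap WT. Its RAP2A/B/C-tKO call was lost without WT on 1 kPa replicate 3 (0.0543), WT on 40 kPa replicate 2 (0.0564) or RAP2A/B/C-tKO on 1 kPa replicate 2 (0.0501). The scaffold ILK changed little, at 0.15, 0.16 and 0.22 in RAP2A/B/C-tKO, in LATS1/2-dKO and in YAP/TAZ-dKO cells, each called. LIMS1 was called at 0.17 in RAP2A/B/C-tKO and 0.22 in LATS1/2-dKO, and it has near-identical copies in the genome that may share fragments. Of the RAP2A/B/C-tKO calls, that of ILK was lost without WT on 40 kPa replicate 1 (0.0514). That of LIMS1 was lost without any of WT on 1 kPa replicates 1 and 2, WT on 40 kPa replicate 1, RAP2A/B/C-tKO on 1 kPa replicates 2 and 3 and RAP2A/B/C-tKO on 40 kPa replicate 3 (up to 0.0802). The LIMS1 call was also lost when only the compared groups were fitted (0.0814).

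Among kinases and docking adaptors, 2 of 7 genes were called in YAP/TAZ-dKO cells, both lower, beside 50.6% of all genes called. PXN, the docking protein paxillin, lay at 22.0 to 28.1 FPKM (median 24.98) against 33.1 to 39.4 FPKM (median 35.1) in WT (-0.52 ± 0.094, adjusted p = 0.00014). TGFB1I1 (ENSG00000140682.18, chromosome 16, 31482906 to 31489281), its relative Hic-5, lay at 0.486 to 2.01 FPKM (median 1.39) against 2.09 to 3.83 FPKM (median 2.53) (-0.68 ± 0.089, 3.8e-06). All 6 libraries of YAP/TAZ-dKO were below WT for both genes. The kinases did not follow. PTK2, which encodes FAK, was lower in RAP2A/B/C-tKO cells at 53.2 to 68.1 FPKM (median 57.3) against 65.4 to 79.5 FPKM (median 69.0) in WT (-0.25 ± 0.053, 0.00316), with overlap, and SRC was lower in LATS1/2-dKO cells at 15.2 to 24.4 FPKM (median 23.4) against 28.4 to 34.3 FPKM (median 30.0) (-0.52 ± 0.078, 3.62e-05), with none. PTK2 and SRC in YAP/TAZ-dKO cells stood at -0.017 and -0.031, uncalled.

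NEDD9 (ENSG00000111859.16, chromosome 6, 11183531 to 11382581), a scaffold of the p130Cas family that FAK and SRC phosphorylate, was nearly silent in WT and had the largest change in LATS1/2-dKO cells. It lay at 0.482 to 1.56 FPKM (median 0.876) in RAP2A/B/C-tKO and 1.502 to 2.22 FPKM (median 2.04) in LATS1/2-dKO cells, against 0.186 to 0.469 FPKM (median 0.244) in WT. Both lines stood wholly above WT (0.58 ± 0.073, adjusted p = 1.88e-05, and 1.22 ± 0.073, 2.36e-10), with mean FPKM 3.42 and 7.16 times that of WT. NEDD9 had passed the filter through libraries of these 2 lines. At these levels the deposited confidence interval reached a median of 81.2% to either side of the value. YAP/TAZ-dKO cells, at 0.146 to 0.403 FPKM (median 0.256), overlapped WT (-0.017 ± 0.073, uncalled). CRK, an adaptor that binds phosphorylated p130Cas and paxillin, rose slightly in RAP2A/B/C-tKO (0.16 ± 0.038, 0.00725) and in LATS1/2-dKO cells (0.11 ± 0.038, 0.0323), the second held in 10 of 18 alternatives. It was lost without any one of WT on 1 kPa replicates 2 and 3, WT on 40 kPa replicates 2 and 3, LATS1/2-dKO on 1 kPa replicates 1 and 3 and LATS1/2-dKO on 40 kPa replicates 2 and 3 (up to 0.0784). BCAR1 was uncalled in all 3 lines, but without the 2 libraries that stood apart it was called higher in RAP2A/B/C-tKO (0.48, adjusted p = 0.00387) and YAP/TAZ-dKO cells (0.48, 0.000754).

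Tensins cap actin at mature adhesions. TNS3 (ENSG00000136205.16, chromosome 7, 47314752 to 47622156) lay at 13.1 to 16.2 FPKM (median 14.8) in LATS1/2-dKO and 3.31 to 3.69 FPKM (median 3.51) in YAP/TAZ-dKO cells, against 5.50 to 6.18 FPKM (median 5.78) in WT. The 3 ranges did not touch, and replicates were close together (1.19 ± 0.045, adjusted p = 3.34e-13, and -0.59 ± 0.045, 3.14e-09). RAP2A/B/C-tKO cells, at 5.404 to 6.62 FPKM (median 6.12), were not called against WT and differed from LATS1/2-dKO cells by -1.13 ± 0.045 (adjusted p = 1.07e-12). TNS1 was not called in any line.

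CD44 (ENSG00000026508.16, chromosome 11, 35160417 to 35253949), the receptor for hyaluronan, had the largest change of all 36 genes in YAP/TAZ-dKO cells. It lay at 20.4 to 31.6 FPKM (median 25.2) in RAP2A/B/C-tKO, 22.3 to 36.1 FPKM (median 29.7) in LATS1/2-dKO and 1.06 to 4.55 FPKM (median 2.70) in YAP/TAZ-dKO cells, against 14.1 to 18.5 FPKM (median 16.7) in WT. Every RAP2A/B/C-tKO and LATS1/2-dKO library was above every WT library, and every YAP/TAZ-dKO library below. The changes were 0.58 ± 0.10 (adjusted p = 0.000312), 0.79 ± 0.10 (3.07e-06) and -2.36 ± 0.10 (3.49e-13), and the mean FPKM was 1.53, 1.79 and 0.159 times that of WT. Set directly against each other, LATS1/2-dKO exceeded YAP/TAZ-dKO cells by 3.15 ± 0.10 (2.13e-15). CD151 was not called in any line, though without the 2 libraries that stood apart it was called higher in all 3, at 0.16, 0.16 and 0.19 in RAP2A/B/C-tKO, in LATS1/2-dKO and in YAP/TAZ-dKO cells (adjusted p = 0.00297, 0.00127 and 0.000129).

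The 4 syndecans, heparan sulfate carriers that share a short conserved tail, diverged. SDC2 lay at 91.1 to 119 FPKM (median 104) in RAP2A/B/C-tKO, 135 to 159 FPKM (median 141) in LATS1/2-dKO and 77.6 to 83.6 FPKM (median 79.2) in YAP/TAZ-dKO cells, against 63.1 to 79.9 FPKM (median 71.3) in WT. The first 2 lines stood wholly above WT, and YAP/TAZ-dKO overlapped it, yet all 3 were called higher (0.54 ± 0.033, adjusted p = 2.19e-09, 1.00 ± 0.033, 3.35e-14, and 0.16 ± 0.033, 0.000371). In YAP/TAZ-dKO cells SDC2 averaged 79.3 FPKM on 40 kPa against 77.7 in WT, and 80.7 against 65.3 on 1 kPa. SDC4, the syndecan of focal adhesions, lay at 8.58 to 10.9 FPKM (median 9.89) in LATS1/2-dKO and 6.03 to 7.09 FPKM (median 6.76) in YAP/TAZ-dKO cells, against 11.2 to 13.04 FPKM (median 11.9) in WT, both wholly below WT (-0.27 ± 0.051, 0.000427, and -0.76 ± 0.051, 4.68e-10). SDC4 was slightly higher in RAP2A/B/C-tKO cells (0.19 ± 0.051, 0.0132), a call lost when only the compared groups were fitted (0.0621). SDC3 was lower in LATS1/2-dKO cells at 4.73 to 9.13 FPKM (median 7.59) against 11.5 to 14.8 FPKM (median 13.1) (-0.78 ± 0.14, 0.000163). SDC1 was uncalled in all 3 lines, and without the 2 libraries that stood apart it was called higher in RAP2A/B/C-tKO (0.57, 0.000187) and LATS1/2-dKO cells (0.25, 0.0355).

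**Figure D3:**
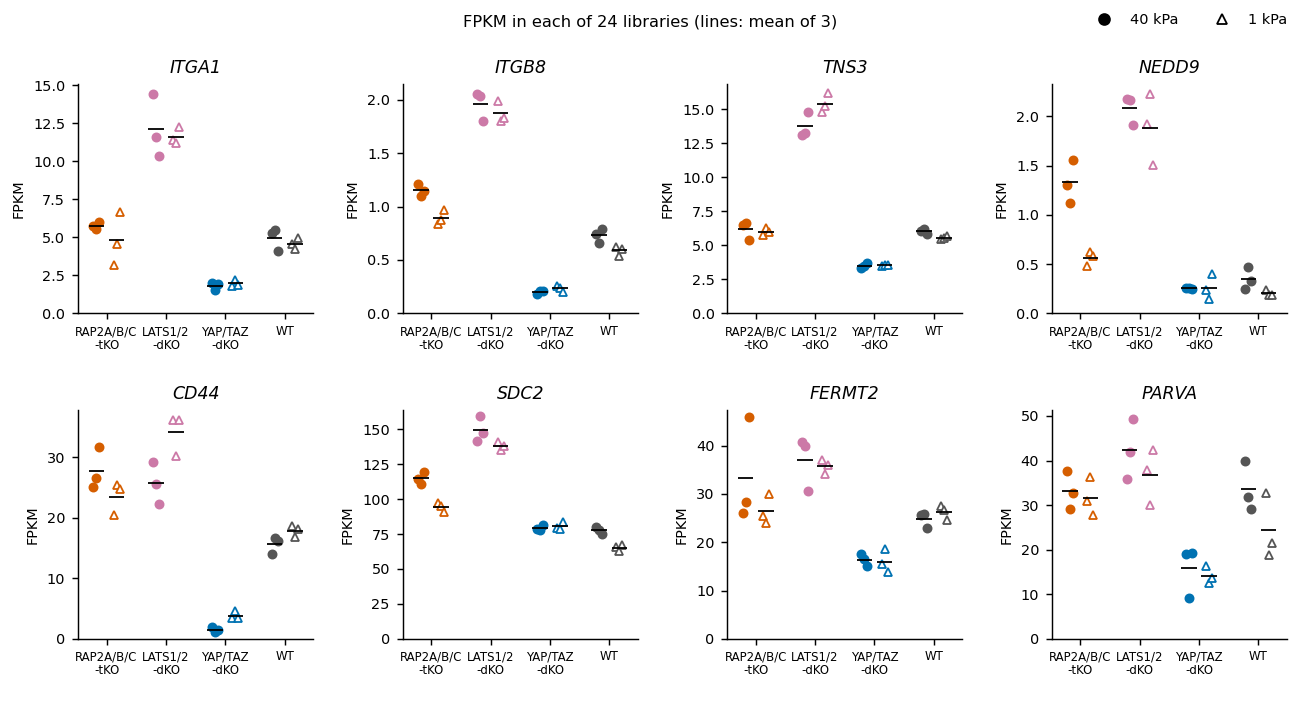
FPKM of 8 adhesion genes in each of the 24 libraries, by genotype, with 40 kPa as filled circles left of 1 kPa as open triangles and lines at the mean of 3. CD44 lies between 1.06 and 4.55 FPKM in all YAP/TAZ-dKO libraries and at 14.1 or more in all others, and FERMT2 shows the 1 high library of RAP2A/B/C-tKO at 45.9.

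The lines that lack the brake (LATS1/2-dKO) and the effectors (YAP/TAZ-dKO) of the same pathway were also compared without WT. Here 21 of 36 genes were higher and 2 lower in LATS1/2-dKO cells, 63.9% called, against a background of 58.1% (29.7% higher and 28.4% lower). Without ITGB8, LIMS2 and NEDD9, which passed the filter through LATS1/2-dKO and RAP2A/B/C-tKO libraries, 18 of 33 were higher and 2 lower, 60.6% called and near the background. CD44, ITGA1 (2.15 ± 0.11, adjusted p = 6.01e-12), TNS3 (1.78 ± 0.045, 1.56e-16), PARVA (1.36 ± 0.17, 1.09e-06), ITGB8 (1.26 ± 0.047, 5.9e-14), NEDD9 (1.24 ± 0.073, 4.21e-11) and FERMT2 (1.12 ± 0.11, 6.93e-08) led the higher genes. SDC3 (-0.74 ± 0.14, 0.000117) and SRC (-0.49 ± 0.078, 2.45e-05) were the 2 lower ones. In 16 higher and 2 lower genes the 6 libraries of one line did not overlap those of the other, as in 20.4% and 18.1% of all genes. ITGB8, LIMS2 and NEDD9 are among the 16.

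Neighbouring genes were read to set each change beside that of its surroundings. For each gene, the median change of the other tested genes within 5 Mb was taken (23 to 180 genes). Of the 18 genes lower in YAP/TAZ-dKO, 15 lay below their neighbours' median. The exceptions were TLN1, whose -0.36 equalled the -0.36 of its 90 neighbours to 2 decimals, ITGA2 (-0.35, neighbours -0.56) and ITGB5 (-0.53, neighbours -0.66). ITGA1 shares the 23 neighbours of ITGA2 and lay at -0.99, and CD44 at -2.36 had neighbours at -0.24. TLN1 in RAP2A/B/C-tKO cells, at -0.46, again stood close to its neighbours at -0.38. In LATS1/2-dKO cells SDC4 at -0.27 had neighbours at -0.28, while FERMT1, also on chromosome 20, lay at -0.54 with neighbours at -0.28. TLN1, ITGA2 and ITGB5 in YAP/TAZ-dKO and SDC4 in LATS1/2-dKO cells thus changed no more than the median of the genes around them. All 12 higher genes of LATS1/2-dKO and all 12 of RAP2A/B/C-tKO lay above their neighbours' medians. Both sets hold ITGB8, LIMS2 and NEDD9, which passed the filter through these lines. Genes picked for a call in one direction are likely to lie past their neighbours' median in that direction. Nothing is therefore read from these counts, nor from that of the lower genes in YAP/TAZ-dKO. Whether the neighbourhood has a part in these calls was not tested.

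**Figure D4:**
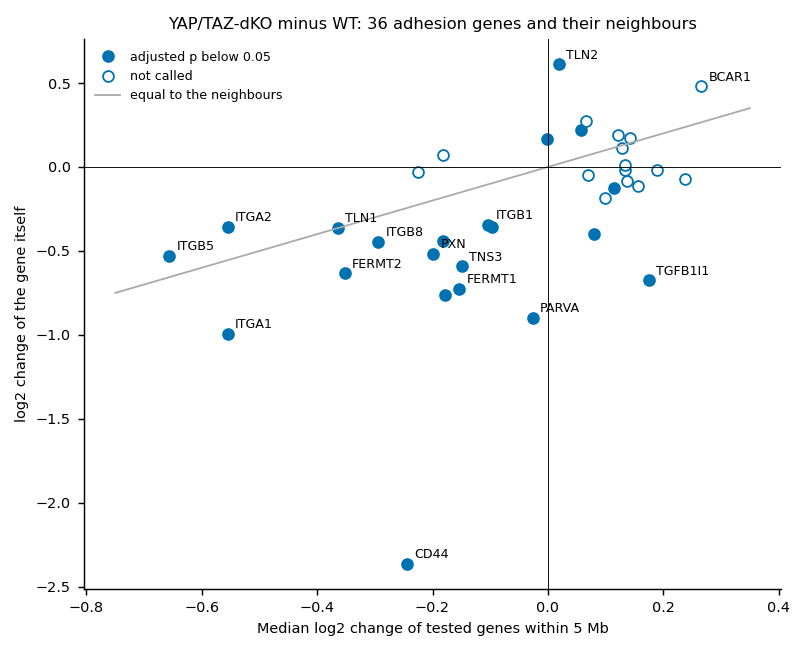
Change in log2(FPKM + 1) in YAP/TAZ-dKO minus WT for each of the 36 genes (vertical) against the median change of tested genes within 5 Mb (horizontal); filled points have an adjusted p below 0.05 and the grey line marks equality. TLN1 lies on the line, ITGA2 and ITGB5 above it, and CD44, PARVA and TGFB1I1 far below.

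Stiffness, 40 against 1 kPa, gave few calls among these genes. Averaged over the 4 genotypes, NEDD9 and SDC2 were higher on 40 kPa and TGFB1I1, CD44, SRC and VCL lower, 16.7% of 36 beside a background of 9.53% (2.33% higher and 7.2% lower). With libraries scaled to a shared median, 3 of the genes were called higher and 3 lower, in place of 2 and 4, and over all genes the calls were 772 higher and 699 lower, in place of 369 and 1140. Without the 2 libraries that stood apart 10 genes were called, beside 15.2% of all genes. With all libraries but without ITGB8, LIMS2 and NEDD9, 1 of 33 genes was higher and 4 lower, 15.2% called beside 9.53%. These 3 genes had passed the filter through LATS1/2-dKO and RAP2A/B/C-tKO libraries. Within genotypes, 2 genes were higher and 1 lower in RAP2A/B/C-tKO (background 3.87%, of which 0.986% higher and 2.88% lower), 0 were called in LATS1/2-dKO (background 0.708%, of which 0.0885% higher and 0.619% lower), 2 were lower in YAP/TAZ-dKO (background 0.347%, of which 0.12% higher and 0.227% lower) and 1 was higher in WT (background 0.986%, of which 0.322% higher and 0.663% lower). Without ITGB8, LIMS2 and NEDD9, the calls in RAP2A/B/C-tKO were 1 higher and 1 lower of 33. In LATS1/2-dKO cells 7 genes had an unadjusted p below 0.05 by limma, and no other tool was run. The share of all genes at that unadjusted threshold was not taken, so nothing is read from this count. All 3 stiff libraries lay above, or all below, the 3 soft ones for 5 and 4 genes in RAP2A/B/C-tKO (7.02% and 15.3% of all genes tested), 3 and 8 in LATS1/2-dKO (3.93% and 11.6%), 2 and 11 in YAP/TAZ-dKO (9.88% and 14.4%), and 6 and 2 in WT (9.09% and 16.1%).

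SDC2 responded upward. It had 114, 111 and 119 FPKM on 40 kPa in RAP2A/B/C-tKO cells, against 97.3, 94.8 and 91.1 on 1 kPa, and 79.9, 78.0 and 75.2 on 40 kPa in WT, against 65.5, 63.1 and 67.3 on 1 kPa. Within both genotypes the stiffnesses did not overlap. In YAP/TAZ-dKO cells the values were 78.4, 77.6 and 81.8 on 40 kPa and 79.5, 78.9 and 83.6 on 1 kPa, which overlapped, and in LATS1/2-dKO cells, without overlap, 142, 159 and 148 on 40 kPa and 141, 135 and 138 on 1 kPa. The change was 0.28 ± 0.046 in RAP2A/B/C-tKO (adjusted p = 0.00222), 0.11 ± 0.046 in LATS1/2-dKO (0.301), -0.025 ± 0.046 in YAP/TAZ-dKO (0.947) and 0.25 ± 0.046 in WT (0.012). The WT call was lost without WT on 1 kPa replicate 2 (0.0725), WT on 40 kPa replicate 1 (0.0736) or replicate 2 (0.0623), and with only the compared groups neither it (0.0811) nor the RAP2A/B/C-tKO call (0.294) held. The response of YAP/TAZ-dKO cells minus that of WT was -0.27 ± 0.066 (adjusted p = 0.0932), not called, and called with libraries scaled to a shared median (0.0333), without the 2 libraries that stood apart (0.014) and with only the compared groups (0.0377).

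CD44 fell on the stiff gel in YAP/TAZ-dKO cells. It had 1.96, 1.06 and 1.43 FPKM on 40 kPa, against 3.45, 4.55 and 3.50 on 1 kPa, without overlap (-0.97 ± 0.14, adjusted p = 0.00127). LATS1/2-dKO cells had 29.3, 25.6 and 22.3 on 40 kPa and 36.1, 30.2 and 36.1 on 1 kPa (-0.40 ± 0.14, 0.191), and WT had 14.1, 16.6 and 16.2 on 40 kPa and 18.5, 16.8 and 18.1 on 1 kPa (-0.18 ± 0.14, 0.685). In these 2 genotypes the stiff libraries also lay below the soft ones, with no call. RAP2A/B/C-tKO cells went the other way in sign, with 24.98, 26.6 and 31.6 on 40 kPa and 20.4, 25.4 and 24.7 on 1 kPa (0.23 ± 0.14, 0.324), and overlapped. Set against WT, the response differed by -0.79 ± 0.19 in YAP/TAZ-dKO (adjusted p = 0.0923), which was not called. It was called with a pseudocount of 0.1 (0.0347), without YAP/TAZ-dKO on 40 kPa replicate 1 (0.0345) and without the 2 libraries that stood apart (0.0257). The YAP/TAZ-dKO response itself was lost with only the compared groups (0.0834).

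NEDD9 rose on the stiff gel in RAP2A/B/C-tKO cells, with 1.31, 1.13 and 1.56 FPKM on 40 kPa, against 0.482, 0.627 and 0.581 on 1 kPa (0.57 ± 0.10, adjusted p = 0.00417). The stiff and soft libraries did not overlap, and the call was lost with only the compared groups (0.215). NEDD9 had passed the filter through LATS1/2-dKO and RAP2A/B/C-tKO libraries, and of the latter only those on 40 kPa reached 1 FPKM. LATS1/2-dKO cells had 2.17, 2.17 and 1.91 on 40 kPa and 1.92, 2.22 and 1.502 on 1 kPa, overlapping. In WT the values were 0.248, 0.469 and 0.333 on 40 kPa and 0.239, 0.187 and 0.186 on 1 kPa, all below 1 FPKM. The difference of response between RAP2A/B/C-tKO and WT was 0.41 ± 0.15 (adjusted p = 0.655), not called. TGFB1I1 was lower on 40 kPa in YAP/TAZ-dKO cells, at 0.486, 1.10 and 0.818 FPKM against 1.97, 1.68 and 2.01 on 1 kPa (-0.69 ± 0.12, 0.015) and without overlap, a call lost without YAP/TAZ-dKO on 1 kPa replicate 1 (0.0712) or 3 (0.083), or on 40 kPa replicate 1 (0.101). With only the compared groups TGFB1I1 was not called in this line either (0.104). In RAP2A/B/C-tKO cells it had 2.11, 2.46 and 2.41 on 40 kPa and 4.39, 3.36 and 3.20 on 1 kPa (-0.48 ± 0.12, 0.0421). That call held in 1 of 12 alternatives, the one without RAP2A/B/C-tKO on 40 kPa replicate 2, with adjusted p from 0.0522 to 0.37 in the others. Leaving out RAP2A/B/C-tKO on 1 kPa replicate 1 (0.184), 2 (0.0753) or 3 (0.0584), or on 40 kPa replicate 1 (0.0703) or 3 (0.09), ended it. WT and LATS1/2-dKO cells had -0.28 and -0.17, uncalled.

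SRC and VCL were called lower on 40 kPa as a mean over genotypes and in no single genotype. SRC had 27.6, 24.4 and 20.9 FPKM on 40 kPa in RAP2A/B/C-tKO cells, against 29.6, 30.6 and 32.7 on 1 kPa, and 15.2, 17.9 and 22.7 in LATS1/2-dKO cells, against 24.2, 24.4 and 24.3. In YAP/TAZ-dKO cells it had 29.1, 27.9 and 29.9 on 40 kPa and 32.3, 30.5 and 31.1 on 1 kPa, and in WT, where the stiffnesses overlapped, 33.7, 28.9 and 29.5 on 40 kPa and 28.4, 34.3 and 30.5 on 1 kPa. The mean change was -0.21 ± 0.055 (adjusted p = 0.0209). Its lowest values on 40 kPa in RAP2A/B/C-tKO and LATS1/2-dKO were in the 2 libraries that stood apart, and the call held without both. VCL changed by -0.11 ± 0.033 (0.0486), which held in 7 of 29 alternatives. With 1 library left out it held only where that library was WT on 1 kPa replicate 2, WT on 40 kPa replicate 2, RAP2A/B/C-tKO on 1 kPa replicate 1 or on 40 kPa replicate 3, LATS1/2-dKO on 40 kPa replicate 1 or YAP/TAZ-dKO on 40 kPa replicate 3. VCL in YAP/TAZ-dKO cells had 51.3, 45.7 and 52.3 on 40 kPa and 59.2, 65.4 and 60.6 on 1 kPa (-0.31 ± 0.066, 0.0502).

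Whether stiffness acts alike in a knockout line and in WT was asked through the difference of the 2 responses, and limma called it for 0 of the 36 genes in each line. The background was 0.0505% in RAP2A/B/C-tKO (0.0126% higher and 0.0379% lower), 0.0632% in LATS1/2-dKO (0.019% and 0.0442%) and 0.392% in YAP/TAZ-dKO (0.259% and 0.133%). At an unadjusted p below 0.05, 3 genes differed in RAP2A/B/C-tKO, 3 in LATS1/2-dKO and 6 in YAP/TAZ-dKO, and no other tool was run. The share of all genes at this unadjusted threshold was not taken, so nothing is read from these counts.

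**Figure D5:**
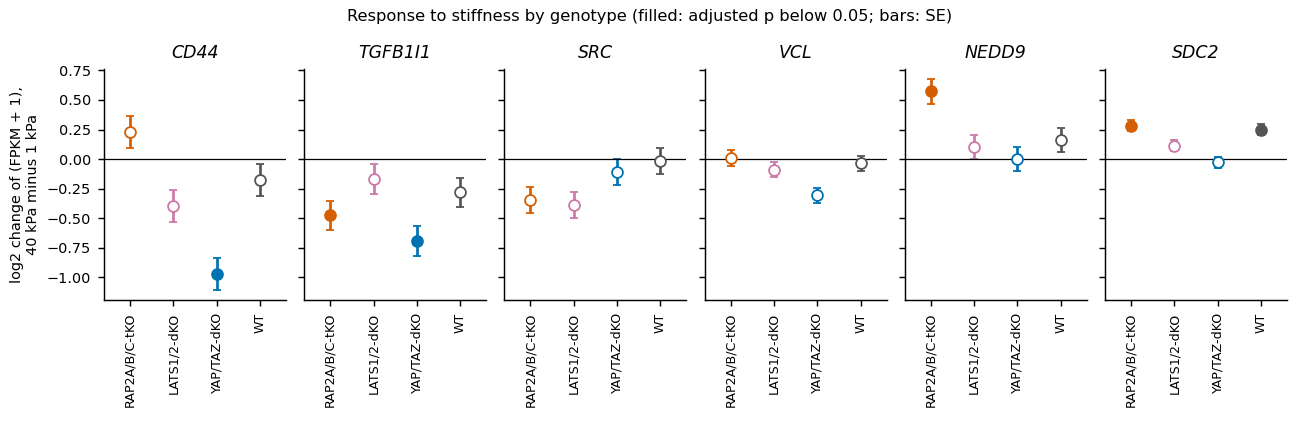
Change in log2(FPKM + 1), 40 minus 1 kPa, of the 6 genes called over the 4 genotypes, by genotype; bars are SE and filled points have an adjusted p below 0.05. CD44 and TGFB1I1 lie lowest in YAP/TAZ-dKO cells, and NEDD9 at 0.57 stands out in RAP2A/B/C-tKO cells.

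Further genes of the pathway were read in lists named for their roles. Of 31 other focal adhesion proteins tested, 3 were higher and 15 lower in YAP/TAZ-dKO cells, 9 and 7 in LATS1/2-dKO, and 2 and 4 in RAP2A/B/C-tKO, with medians of -0.21, 0.069 and 0.018. The shares called were 58.1%, 51.6% and 19.4%, beside 50.6%, 33.9% and 16% of all genes, so those in YAP/TAZ-dKO and RAP2A/B/C-tKO lay near the background. Those lowest in YAP/TAZ-dKO cells were TES (-1.20 ± 0.069, adjusted p = 5.82e-11), a LIM protein of adhesions, the actin crosslinker ACTN1 (-0.89 ± 0.055, 1.78e-10), TNS2 (-0.84 ± 0.21, 0.00281) and TRIP6 (-0.75 ± 0.17, 0.000919). In LATS1/2-dKO cells the filamins FLNC (1.07 ± 0.16, 4.81e-05) and FLNA (0.99 ± 0.12, 2.82e-06) were highest. PARVB, a further parvin, was lowest in RAP2A/B/C-tKO cells (-0.40 ± 0.052, 3.42e-05). Of 9 other integrin subunits 1 passed the filter, ITGA2B, lower in all 3 lines (-0.55, -0.77 and -0.42 in RAP2A/B/C-tKO, in LATS1/2-dKO and in YAP/TAZ-dKO).

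Of 31 regulators of integrin activity and trafficking tested, 4 were higher and 12 lower in YAP/TAZ-dKO cells, 12 and 5 in LATS1/2-dKO, and 4 and 2 in RAP2A/B/C-tKO, with medians of -0.079, 0.13 and 0.014. The shares called were 51.6%, 54.8% and 19.4%, beside the same backgrounds of 50.6%, 33.9% and 16%. CAV1, the coat protein of caveolae, had the largest change, at -2.67 ± 0.056 in YAP/TAZ-dKO (1.87e-17), 0.56 ± 0.056 in LATS1/2-dKO (2.7e-07) and -0.23 ± 0.056 in RAP2A/B/C-tKO cells (0.00755). The recycling adaptor RAB11FIP1 was higher in LATS1/2-dKO cells (0.73 ± 0.045, 3.91e-10), and the kinase FYN, a relative of SRC, was lower there (-0.47 ± 0.044, 1.19e-07). Of 22 tetraspanins, ERM proteins and syndecan partners tested, 6 were higher and 6 lower in YAP/TAZ-dKO, 6 and 3 in LATS1/2-dKO, and 4 and 2 in RAP2A/B/C-tKO cells, with medians of -0.0013, -0.029 and 0.0017. Here the shares called were 54.5%, 40.9% and 27.3%, beside the same 50.6%, 33.9% and 16%. SLC3A2, the CD98 heavy chain that binds beta tails (-2.02 ± 0.048, 8.86e-17), the tetraspanin CD9 (-1.60 ± 0.054, 2.73e-14) and the integrin-associated protein CD47 (-1.11 ± 0.085, 3.04e-09) were lowest in YAP/TAZ-dKO cells. TSPAN4, a tetraspanin of migrasomes, was highest in LATS1/2-dKO cells (0.94 ± 0.15, 7.74e-05).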

How the data were processed

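Poly(A) mRNA was profiled in 24 libraries of HEK293A cells, 3 per genotype and stiffness. Per the submitters' processing notes, reads were handled with STAR 2.4.2a and Cufflinks 2.2.1 on hg19. The sources used here do not name the gene annotation, whether strand was used or how multiply placed reads were counted. From the authors come deposited FPKM values per gene, with a status, a confidence interval and hg19 coordinates per the file headers, and no counts.

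Each table had 60350 entries under 58266 symbols. Those of 338 symbols with several entries were summed, and 92 symbols with a failed status were left out. All 37 mitochondrial entries were listed at 0. limma 3.58.1 (R 4.3.3) was fitted with a trend to log2(FPKM + 1) of the 15828 genes with 1 FPKM or more in at least 3 libraries, as 8 group means over 24 libraries with 16 residual degrees of freedom. Tests were two-sided, with Benjamini-Hochberg adjustment within each of 13 contrasts. A run on simulated data, with independent normal values and planted changes, checked the code only and does not bear on the calls made here. p-values measure the spread between these libraries. Depth came from the deposited intervals, and GC content and lengths from GENCODE on GRCh38 by symbol (98.0% of genes tested had a GC value). Python 3.11.15 was used for the rest.

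The 41 genes, the lists and the tests were chosen with earlier results of these data known. All members called in a contrast could be named. Per-library values were planned for up to 8 a contrast with the largest change, and ranges were given for others. In each wider list up to 4 called genes a contrast were named. BCAR1, CD151 and SDC1, called only without 2 libraries, were named after their values were seen. Alternatives were a pseudocount of 0.1, no filter, scaling libraries to a shared median, leaving out both GC-skewed libraries, fitting only the groups compared, a replicate block, and leaving out each library in turn.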

Additional observations from a re-analysis of the deposited data

How the results depend on the processing

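No call of these genes changed direction under any alternative run. Counts of these genes under the alternatives are given here without the share of all genes called. That share also moved with the setting, as shown above for the runs without the 2 GC-skewed libraries. Nothing is therefore read from these counts about the genes as a set. Calls held in every alternative for 20 of 21 genes in YAP/TAZ-dKO, 14 of 17 in LATS1/2-dKO, 9 of 14 in RAP2A/B/C-tKO, 21 of 23 between LATS1/2-dKO and YAP/TAZ-dKO, 17 of 20 between RAP2A/B/C-tKO and LATS1/2-dKO, and 5 of 6 for stiffness over 4 genotypes. Leaving out 1 library gave 20 to 22, 14 to 20, 12 to 15, 21 to 24, 17 to 23 and 5 to 8 calls in these comparisons. For stiffness within genotypes it gave 2 to 6 calls in RAP2A/B/C-tKO (main count 3), 0 to 1 in LATS1/2-dKO (0), 1 to 2 in YAP/TAZ-dKO (2) and 0 to 1 in WT (1), and for the difference of response between YAP/TAZ-dKO and WT 0 to 1 (0). The highest count in RAP2A/B/C-tKO came without its 40 kPa replicate 1, and in LATS1/2-dKO without its 40 kPa replicate 3.

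Fitting only the groups compared left 0 calls for stiffness in RAP2A/B/C-tKO and 0 in WT, gave 1 in YAP/TAZ-dKO that was neither of the 2 main calls, and gave 1 for the difference of response in YAP/TAZ-dKO. Fewer samples then share the spread. A pseudocount of 0.1 gave 2 calls for stiffness in RAP2A/B/C-tKO, 3 in YAP/TAZ-dKO and 1 for that difference. No filter gave 2 in RAP2A/B/C-tKO. Scaling gave 2 in RAP2A/B/C-tKO (2 higher, 0 lower, in place of 2 and 1), 3 in YAP/TAZ-dKO and 1 for the difference. Leaving out both GC-skewed libraries gave 2 in RAP2A/B/C-tKO, 4 in YAP/TAZ-dKO, 10 over the 4 genotypes and 2 for the difference. Over all genes, scaling gave 374 higher and 311 lower for stiffness in RAP2A/B/C-tKO, in place of 156 and 456, 15 and 34 in LATS1/2-dKO, in place of 14 and 98, and 127 and 75 in WT, in place of 51 and 105. For the difference of response it gave 3 and 17 in LATS1/2-dKO, in place of 3 and 7, and 38 and 36 in YAP/TAZ-dKO, in place of 41 and 21. The cause of these moves was not tested.

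The replicate numbers did not pair the libraries: deviations of same-numbered libraries correlated at -0.247 to 0.149 (median -0.00078), with 3 of 84 pairs above 0.1, and 7 of 24 libraries were closest to their own number. With the replicate block, stiffness in RAP2A/B/C-tKO had 2 calls, over 4 genotypes 5, RAP2A/B/C-tKO against WT 16, LATS1/2-dKO 17 and YAP/TAZ-dKO 21, LATS1/2-dKO against YAP/TAZ-dKO 24 and RAP2A/B/C-tKO against LATS1/2-dKO 18. Precision is limited for scarce genes, whose deposited intervals were wide: to either side, a median of 81.2% for NEDD9, 52.3% for LIMS2, 51.2% for TLN2 and 47.3% for ITGA3, and 39.0% for ILK, which is not scarce.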

Other observations

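Over the 4 genotypes, 3 of 31 regulators of integrin activity and trafficking were lower on 40 kPa and none higher, 9.68% called beside 9.53% of all genes. They were PLAUR, the urokinase receptor (-0.24 ± 0.068, adjusted p = 0.0346), the RAC and CDC42 exchange factor ARHGEF6 (-0.19 ± 0.041, 0.00724) and CIB1, an integrin alpha tail binder (-0.16 ± 0.044, 0.0337). The tetraspanins CD63 (-0.19 ± 0.042, 0.00814) and CD9 (-0.15 ± 0.038, 0.0227) were lower too, as was FBLIM1, migfilin (-0.30 ± 0.090, 0.0454).

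LASP1, an actin-binding LIM protein, was higher on 40 kPa in WT (0.20 ± 0.043, 0.027). It was the 1 gene of these lists whose response differed by a call between a knockout line and WT, at -0.31 ± 0.062 in YAP/TAZ-dKO cells (0.0272). Of 31 other focal adhesion proteins tested in RAP2A/B/C-tKO cells, 5 were called between the gels, 16.1% beside 3.87% of all genes. The 4 that were higher on 40 kPa were PALLD (0.45 ± 0.12, 0.044), PDLIM1 (0.29 ± 0.078, 0.0426), FHL2 (0.25 ± 0.060, 0.0232) and LASP1 (0.19 ± 0.043, 0.0213).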
